A study of Homo sapiens with 2 samples.

Results

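The cancer-testis antigen families were taken as every protein-coding gene whose symbol starts with MAGEA, MAGEB, MAGEC, CT45A, CT47A, GAGE, PAGE, XAGE, SSX, CTAG or SPANX, together with PRAME, BRDT, SYCP1 and DDX53. The annotation held 111 such genes, and 98 of them were among the 57736 genes of the deposited counts. The SSX prefix also caught SSX2IP, which encodes a centrosomal partner of an SSX protein, and the CTAG prefix also caught CTAGE genes, which belong to another family. Without these, 93 genes were left.

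Cancer-testis antigens are proteins whose genes are normally active in germ cells, silent in most other adult tissues and switched on in some tumors. Many of the families lie on the X chromosome in clusters of recent, nearly identical copies, and DNA methylation of CG dinucleotides at their promoters is a well-known part of their silencing in somatic cells. Their peptides can be shown to T cells on HLA class I molecules, for which MAGE-A proteins, NY-ESO-1 and PRAME have been studied as targets of immunotherapy. Of the 98 members, 90 were X-linked here. Chromosome 1 carried 3, chromosome 7 carried 2, and chromosomes 6, 18 and 22 carried 1 each.

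RNA-Seq was carried out on A1847 cells, a human epithelial ovarian cancer line that expresses the arginine methyltransferase CARM1. The parental control was CARM1 wild type, and the CARM1 KO cells were 1 clone made by CRISPR with a lentiviral CARM1 guide RNA. Whether the parental cells carried an empty vector is not given in the sources used here. Both were grown in RPMI medium with serum and antibiotics, and each gave 1 library. The parental library held 30741953 estimated reads and the CARM1 KO library held 32300391. With 1 library per group there is no replicate check and no P value, and every difference below compares these libraries and not the conditions.

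The start windows below belong to the members that the results turn on. They are shown because methylation of CG dinucleotides at promoters is a well-known part of the silencing of these genes. Each runs from 250 bases before to 50 bases after the annotated gene start in GRCh37 (hg19), the build of the deposited counts, 5′ to 3′ on the strand of the gene, with every CG dinucleotide in capitals. SYCP1 is at chr1:115397234-115397533 on the plus strand, CT45A3 at chrX:134883238-134883537 on the plus strand and CT45A6 at chrX:134971195-134971494 on the minus strand. MAGEB2 is at chrX:30233430-30233729 on the plus strand and PRAME at chr22:22901719-22902018 on the minus strand. MAGEA4, at chrX:151080717-151081016 on the plus strand, stands for the members with no read in either library and was chosen after the values were seen.
SYCP1: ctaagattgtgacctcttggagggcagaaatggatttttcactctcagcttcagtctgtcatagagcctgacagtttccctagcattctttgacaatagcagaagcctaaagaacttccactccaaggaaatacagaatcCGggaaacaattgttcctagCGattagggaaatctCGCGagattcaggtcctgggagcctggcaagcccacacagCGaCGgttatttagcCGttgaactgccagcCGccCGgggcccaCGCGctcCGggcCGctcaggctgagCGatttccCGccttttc
CT45A3: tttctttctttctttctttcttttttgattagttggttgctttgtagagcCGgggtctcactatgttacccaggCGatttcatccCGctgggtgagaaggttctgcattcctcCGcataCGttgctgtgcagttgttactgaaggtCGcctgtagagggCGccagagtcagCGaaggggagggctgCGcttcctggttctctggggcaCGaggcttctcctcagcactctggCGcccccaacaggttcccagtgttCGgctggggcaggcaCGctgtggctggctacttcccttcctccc
CT45A6: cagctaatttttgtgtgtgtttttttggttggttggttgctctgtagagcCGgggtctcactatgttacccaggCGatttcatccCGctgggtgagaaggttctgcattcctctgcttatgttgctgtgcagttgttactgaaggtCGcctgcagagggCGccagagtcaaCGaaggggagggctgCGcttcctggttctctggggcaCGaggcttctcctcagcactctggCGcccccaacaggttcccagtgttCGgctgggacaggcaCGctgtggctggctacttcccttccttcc
MAGEB2: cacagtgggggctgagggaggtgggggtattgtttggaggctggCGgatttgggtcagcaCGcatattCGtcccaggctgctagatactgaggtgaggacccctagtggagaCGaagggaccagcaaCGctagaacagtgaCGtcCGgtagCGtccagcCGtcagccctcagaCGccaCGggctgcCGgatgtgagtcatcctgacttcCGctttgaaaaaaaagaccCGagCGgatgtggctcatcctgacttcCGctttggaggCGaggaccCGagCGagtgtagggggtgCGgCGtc
PRAME: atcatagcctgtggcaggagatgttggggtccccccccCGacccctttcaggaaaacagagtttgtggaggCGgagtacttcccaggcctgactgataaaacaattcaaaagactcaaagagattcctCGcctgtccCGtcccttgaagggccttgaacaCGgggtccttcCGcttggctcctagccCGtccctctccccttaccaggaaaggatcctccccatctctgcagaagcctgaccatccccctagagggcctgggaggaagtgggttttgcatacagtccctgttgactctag
MAGEA4: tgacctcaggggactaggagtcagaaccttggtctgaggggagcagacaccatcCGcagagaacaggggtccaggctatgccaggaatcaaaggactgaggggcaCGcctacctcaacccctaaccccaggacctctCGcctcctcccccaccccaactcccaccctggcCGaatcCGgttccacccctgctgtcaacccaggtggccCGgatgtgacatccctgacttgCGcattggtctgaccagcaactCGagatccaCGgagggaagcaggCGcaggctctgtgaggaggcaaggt

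These windows held 15 CG dinucleotides for SYCP1, 13 for CT45A3, 11 for CT45A6, 21 for MAGEB2, 7 for PRAME and 10 for MAGEA4. Over all 98 members the median was 11, against 18 over the start windows of 19391 protein-coding genes and 14 over 805 X-linked ones. The 14 members with at least 10 reads had a median of 13 and the 70 with no read had a median of 10, with a range of 1 to 22. These medians count near-identical copies singly, such as 12 CT47A windows with 5 or 6 each. A link between CG number and reads was not tested. PRAME, the member with the most reads, thus had fewer CG dinucleotides in its window than the median member, and MAGEB2 had nearly the most. The windows follow the annotated gene start, which need not be the start in use. Even near-identical copies differed by it, with 3 CG dinucleotides for XAGE1B and 13 for XAGE1A. No methylation was measured in these data.

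The CT45A3 and CT45A4 windows were identical at every base. CT45A2 differed from CT45A3 at A113C and G136T, with positions counted from the 5′ end of the window and the CT45A2 base written first. CT45A3 and CT45A6 differed at 23 positions. Reads from such copies are divided between them by estimation, so the totals of each family are firmer than the values of single copies.

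Folds are ratios of reads after scaling of the libraries, given as higher or lower in CARM1 KO cells, with exact (Clopper-Pearson) 95% intervals. The intervals cover counting error only, since 1 library per group gives no spread between replicates. Amplified reads are not independent molecules, so the intervals can be too narrow even for counting error. A gene was called where both libraries together had at least 10 reads, the fold was above 3 and the interval excluded 1. A count of 0 allows up to 3 reads, which is 0.0963 CPM (reads scaled to the size of the library) in the parental and 0.0941 CPM in the CARM1 KO library, and folds against 0 are lower bounds set at that limit.

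The targeted gene CARM1 had 975 reads in the parental library and 380 in the CARM1 KO library, which was 2.63-fold lower (95% interval 2.33 to 2.97) and below the fold threshold. The paper examined the knockout by immunoblot of CARM1 protein, which RNA reads do not measure. Of 8 ovarian cancer epithelial markers, 5 of 6 tested were called higher, namely KRT8, KRT7, PAX8, MSLN and EPCAM. KRT18 was 2.37-fold higher and not called. The shares over all 18563 genes tested were 12.4% called higher and 11.2% called lower. MUC16 had 0 and 1 reads, and WT1 went the other way with 8 and 1 reads, too few to be tested. The markers summed to 43940 reads in the parental library and 151433 in the CARM1 KO library. Of 4 fibroblast markers, PDGFRA fell from 14326 to 2 reads, LUM from 61 to 1 and DCN from 24 to 0, whereas COL1A1 rose from 131 to 537. Of 8 germ cell markers, DAZL, TEX101, PRM1 and TNP1 had 0 reads in both libraries, and the sum was 279 reads in the parental library and 185 in the CARM1 KO library, of which DMC1 alone had 260 and 169. The 4 Sertoli cell markers summed to 91 and 232 reads, with SOX9 called higher, CLDN11 at 48 and 118 reads, and AMH at 13 and 8. Among 3 leukocyte markers CD68 rose from 400 to 1644 reads, PTPRC had 6 and 0 reads, and CD3E had 0 in both. The fibroblast, Sertoli cell and leukocyte sets had 4, 3 and 1 genes tested, too few to set against the shares over all genes. The part of these other differences in the results below was not tested. In RNA from a whole culture, fewer cells that express a gene and less RNA per cell cannot be told apart.

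Most members gave no reads. Of the 98, 70 had 0 reads in both libraries, 14 had 1 to 9 reads in both together, with a largest sum of 6, and 14 had at least 10. None of the 12 CT47A genes had a read. GAGE, with 17 genes, totaled 3 reads in the parental library and 1 in the CARM1 KO library. MAGEA, the family that holds the first tumor antigens found with patient T cells, totaled 4 and 1 reads over 11 genes. MAGEC totaled 5 and 0 reads over 3 genes, and PAGE 4 and 2 over 6 genes. SPANX, a family of sperm nuclear proteins, totaled 11 and 10 reads over 9 genes. The 5 SSX genes proper in the counts, a family that supplies fusion partners in synovial sarcoma, had 0 reads in both libraries, as had CTAG1B, which encodes NY-ESO-1, CTAG2 and the RNA helicase gene DDX53. BRDT, the testis bromodomain protein gene, had 2 reads in each. At this depth the families at 0 could be present at up to the limit given above, per gene.

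**Figure D1:**
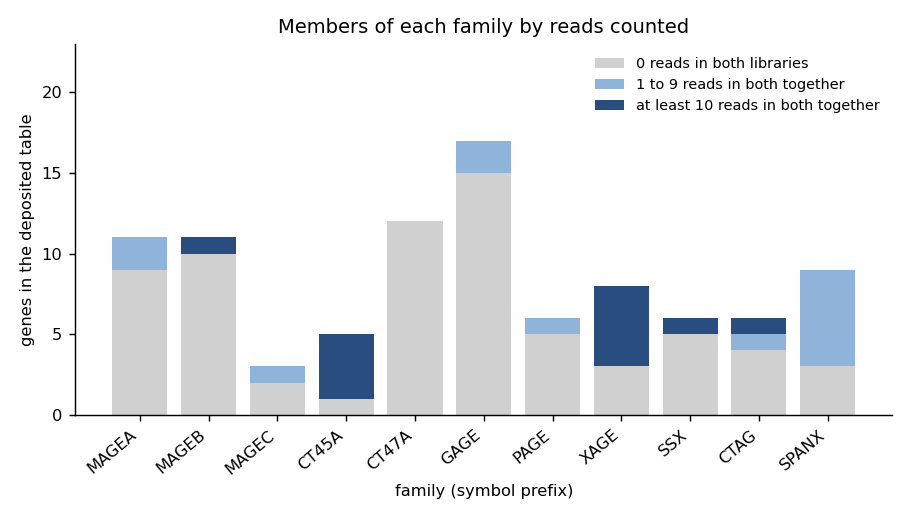
Number of genes of each symbol prefix (x axis) with 0 reads in both libraries (grey), 1 to 9 reads in both together (light blue) and at least 10 (dark blue). CT47A is grey throughout, CT45A is mostly dark, and the dark gene in SSX is SSX2IP.

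Among the 14 members with at least 10 reads, 5 were called higher in CARM1 KO cells (CT45A3, CT45A4, CT45A6, CTAGE9 and SYCP1) and 1 was called lower (MAGEB2). Over the 18563 genes tested, 12.4% were called higher and 11.2% lower. Of the 10 members on the X chromosome, 3 were called higher and 1 lower, beside 13.6% and 13.0% of 499 X-linked protein-coding genes. The 3 X-linked members called higher are copies of a single family and are not independent. CT45A4, CTAGE9 and MAGEB2 had reads in only 1 library, so they reached 10 reads only by differing. The counts are therefore a description of the members and not a result about them as a set.

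**Figure D2:**
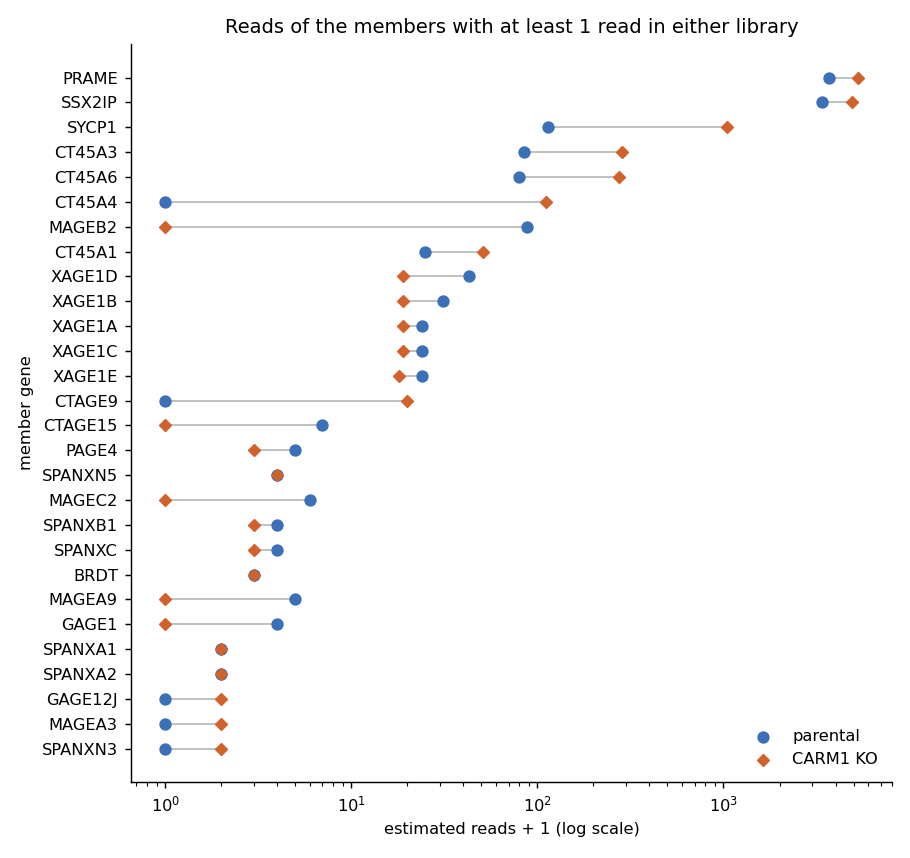
Estimated reads plus 1 on a log scale (x axis) for each of the 28 members with a read (y axis) in parental (blue circles) and CARM1 KO cells (orange diamonds), with 1 library each. SYCP1 and the CT45A copies lie further right in CARM1 KO cells, MAGEB2 is at 0 reads in CARM1 KO cells, and PRAME and SSX2IP lie above all others in both.

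SYCP1 encodes the transverse filament of the synaptonemal complex, the protein ladder that holds paired chromosomes together in meiosis. It had 113 reads in the parental library and 1048 in the CARM1 KO library. This was 9.06-fold higher (95% interval 7.45 to 11.1), the highest fold of the members with reads in both libraries. The gene (ENSG00000198765) spans chr1:115397484-115537991 on the plus strand of GRCh37. Per length, its level was 0.848 RPKM (reads scaled to exon length and library size) in parental cells, above 48.2% of protein-coding genes, and 7.68 RPKM in CARM1 KO cells, above 77.4%. No 75-base stretch of its transcripts, the length of a read, matched another gene of the counts exactly.

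CT45A genes encode small nuclear proteins and lie side by side on the X chromosome, with CT45A3 (ENSG00000232417) at chrX:134883488-134891885 and CT45A6 (ENSG00000226907) at chrX:134962849-134971244. The family had 187 reads in the parental library and 716 in the CARM1 KO library, 3.74-fold higher (95% interval 3.18 to 4.42). CT45A3 had 84 reads in the parental library and 283 in the CARM1 KO library, which was 3.29-fold higher (95% interval 2.57 to 4.25). CT45A6 had 79 and 273 reads, which was 3.38-fold higher (95% interval 2.62 to 4.39). Both were thus close to the threshold and to the family total, and neither call held in the exact test of edgeR with an assumed coefficient of variation of 0.4. CT45A1 had 24 and 50 reads and was 2.03-fold higher (95% interval 1.23 to 3.46), which was not called. CT45A4 had 0 reads in the parental library and 110 in the CARM1 KO library, at least 35.8-fold higher, while CT45A2 had 0 in both.

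The division of reads among the CT45A copies differed between the libraries. CT45A3 took 44.9% of the reads of the family in the parental library and 39.5% in the CARM1 KO library, and CT45A6 took 42.2% and 38.1%. CT45A1 went from 12.8% to 6.98%, and CT45A4 from 0 to 15.4%. These shares rest on estimation: every 75-base stretch of CT45A3 and CT45A4 transcripts occurred in another gene, as did 91.2% of those of CT45A2, 87.9% of CT45A6 and 82.5% of CT45A1. Stretches shared outside the family made up less than 1% for each copy. The family total is therefore less exposed to this than the value of CT45A4, whose transcripts hold no 75-base stretch of their own.

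MAGEB2, a MAGE gene that shares the MAGE homology domain with MAGEA and MAGEC, was the only member called lower. The gene (ENSG00000099399) spans chrX:30233680-30238206 on the plus strand. It had 87 reads in the parental library and 0 in the CARM1 KO library, at least 29.7-fold lower. The parental level was 1.74 RPKM, above 55.5% of protein-coding genes. No 75-base stretch of it occurred in another gene, and the 10 other MAGEB genes, which include neighbours in the same cluster, had 0 reads in both libraries. MAGEB2 was thus the only MAGEB gene with a read in either library.

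XAGE1 copies, X-linked relatives of the GAGE genes, had 141 reads in the parental library and 89 in the CARM1 KO library together, which was 1.62-fold lower (95% interval 1.24 to 2.14) and not called. Of the copies, XAGE1D had 42 and 18 reads (2.39-fold lower, 95% interval 1.35 to 4.41) and XAGE1B had 30 and 18 (1.71-fold lower, 0.921 to 3.25). XAGE1A and XAGE1C had 23 and 18 reads each, and XAGE1E had 23 and 17. Of the 5 copies, XAGE1D alone had an interval that excluded 1. All 75-base stretches of XAGE1A, XAGE1C, XAGE1D and XAGE1E occurred in another gene, so the total is the firmer value. XAGE2, XAGE3 and XAGE5 had no reads.

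PRAME encodes a leucine-rich repeat protein that acts as a substrate receptor of a cullin ubiquitin ligase, and the gene (ENSG00000185686) spans chr22:22890123-22901768 on the minus strand. It was the most abundant member, with 3701 reads in the parental library and 5269 in the CARM1 KO library. The fold of 1.39 higher (95% interval 1.33 to 1.45) was past counting error but below the threshold. Its level was 31.2 RPKM in parental cells, above 94.1% of protein-coding genes, and 43.4 RPKM in CARM1 KO cells, above 95.8%. PRAME was thus expressed at a high level in both libraries while most X-linked members had no read.

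The members of other families that the symbol rule caught behaved as follows. SSX2IP had 3366 reads in the parental library and 4904 in the CARM1 KO library, 1.42-fold higher (95% interval 1.36 to 1.49). CTAGE9 had 0 reads in the parental library and 19 in the CARM1 KO library, at least 6.19-fold higher, and 69.8% of its 75-base stretches occurred in genes outside its prefix, so these reads are uncertain. CTAGE15 went the other way, from 6 reads to 0, at least 2.05-fold lower and too few to be tested. The CTAG prefix totaled 6 and 19 reads, which was 3.09-fold higher (95% interval 1.19 to 9.46) and came from CTAGE genes alone.

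Summed over all 98 members, reads went from 7630 to 12061, 1.54-fold higher (95% interval 1.50 to 1.59), and PRAME and SSX2IP carried most of both sums. The 96 other members went from 563 to 1888 reads, 3.28-fold higher (95% interval 2.98 to 3.60), of which SYCP1 and CT45A made up most.

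**Figure D3:**
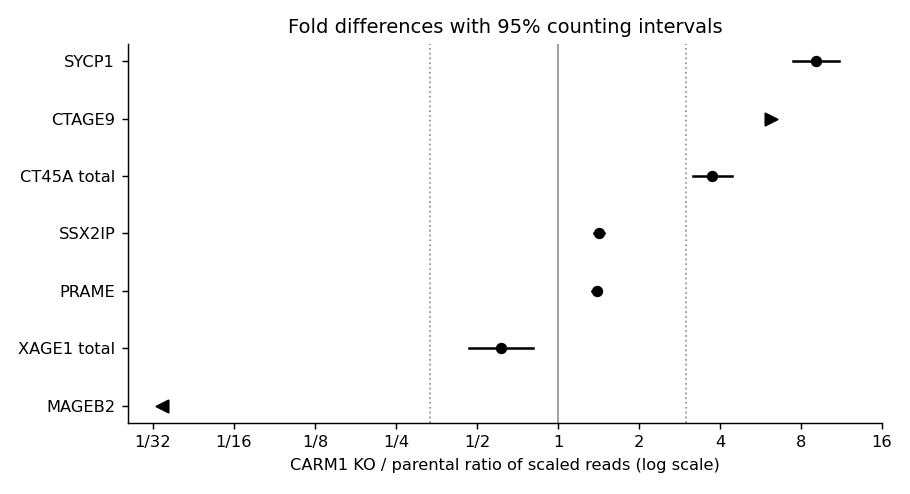
Ratio of scaled reads, CARM1 KO over parental, on a log scale (x axis) for members and totals with reads (y axis). Points carry 95% counting intervals, triangles are bounds against 0 reads, the solid line marks a ratio of 1 and dotted lines mark a fold of 3 either way. SYCP1, CTAGE9 and the CT45A total lie right of the upper line, and MAGEB2 lies left of the lower line.

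Short sequences known from promoter regulation were looked for in the start windows on both strands. The ETS-type letters CGGAAG were found in 22.0% of all protein-coding windows and in 18 of 98 members (18.4%). MAGEB2 held them at 45 bases before and 1 base after the start, as CTTCCG, and PRAME held them 83 bases before. The E-box letters CACGTG, which E2F6-associated MAX and MGA proteins bind, were in 8.38% of all windows and in 29 members (29.6%), of which 16 were near-identical GAGE copies. The E2F-type letters GCGGGA were in 31.4% of all windows and in 44 members (44.9%). CT45A3, CT45A4 and CT45A6 each held TCCCGC 168 bases before the start, and SYCP1 held it 38 bases after. The same letters were in 5 of 8 XAGE windows, in all 12 CT47A windows and in 16 of 17 GAGE windows. No XAGE gene was called, and no CT47A or GAGE gene had enough reads to be called. Copies repeat each other's letters, so these shares are not counts of independent promoters. None of the 3 motifs contains another, CACGTG reads the same on both strands, and a match is only a description of the window.

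Genes beside the members were compared to place these differences. Near the CT45A cluster, MMGT1 had 913 and 1036 reads and FHL1, a LIM-domain gene on the same side, was 2.24-fold higher with 872 and 1996 reads, neither of them called. On the other side ZNF449 had 329 and 343 reads and was not called, whereas INTS6L fell from 1253 to 240 reads, 5.35-fold lower (95% interval 4.65 to 6.16), and SMIM10L2A fell from 23 to 4 reads, 5.89-fold lower (95% interval 2.01 to 23.4). The nearest neighbours on either side, INTS6L and MMGT1, thus were not called higher.

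Genes around SYCP1 were chosen after the values were seen. TSPAN2, a tetraspanin gene 52641 bases away, rose from 57 to 424 reads, 7.27-fold higher (95% interval 5.50 to 9.76). VANGL1 was 2.04-fold higher, NRAS 1.51-fold and SIKE1 1.23-fold, below the threshold.

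**Figure D4:**
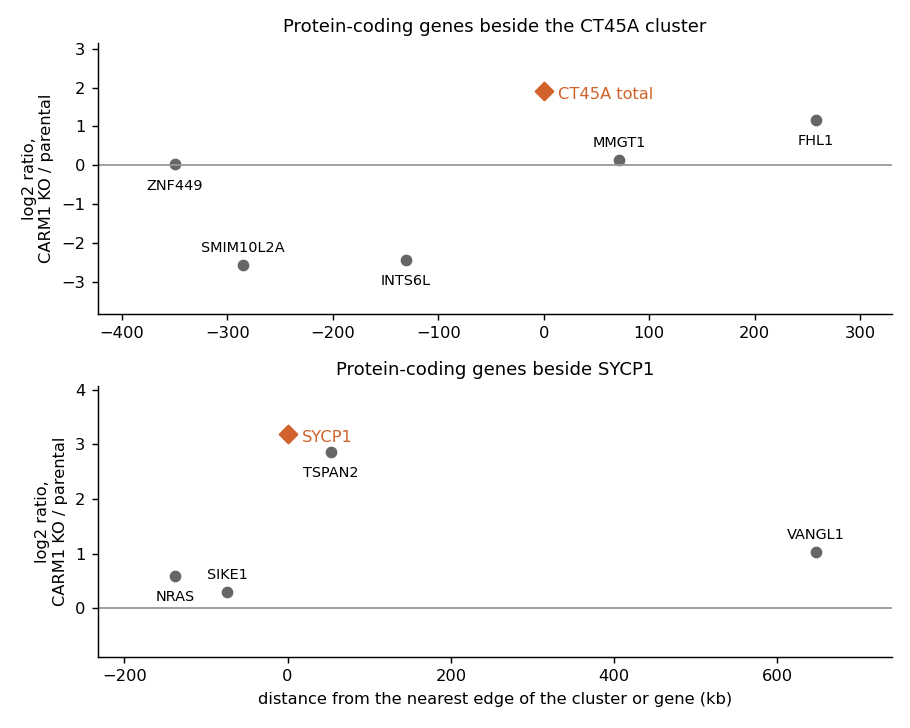
Log2 ratio of scaled reads, CARM1 KO over parental (y axis), against distance in kb from the nearest edge (x axis) for protein-coding genes with reads beside the CT45A cluster (top) and SYCP1 (bottom). The CT45A total stands above all genes plotted with it, while TSPAN2 comes close to SYCP1.

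Other genes of germ cells and other cancer-testis antigens were compared from a list of 70 symbols, of which 62 were in the counts and 26 had at least 10 reads. Of these 26, 10 were called higher, 6 lower and 10 were not called, beside 12.4% and 11.2% over all genes tested. The median log2 ratio was 0.74, against -0.02 over all genes. The list was written with earlier results of these data known. Some genes reached 10 reads through 1 library alone, among them ACRBP (0 and 10 reads) and CT83 (132 and 0). These counts and the median therefore describe the list and are not a result about germline genes as a set. The list shares DAZL, DDX4, DMC1, PIWIL1, SYCP3 and TEX101 with the germ cell markers. Only 3 of those 8 markers had at least 10 reads. None of the 3 was called, and 3 genes are too few to set against the shares over all genes. A further 21 of the 62 had 0 reads in both libraries. CTCFL, the germline paralog of the insulator protein CTCF, rose from 981 to 5747 reads, 5.72-fold higher (95% interval 5.35 to 6.13). STAG3, a meiotic cohesin subunit, rose from 663 to 3026 reads, 4.46-fold higher (4.10 to 4.86). SMC1B, also a meiotic cohesin subunit, rose from 132 to 896 reads, 6.63-fold higher (5.52 to 8.02).

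Other germline genes went the opposite way. TEX15, needed for meiotic recombination, fell from 5932 to 293 reads, 20.7-fold lower (95% interval 18.4 to 23.4). MEIOB, a single-strand DNA binding protein of meiosis, fell from 837 reads to 1, a ratio of 857-fold lower (95% interval 153 to 33888). NR6A1, an orphan nuclear receptor also known as germ cell nuclear factor, fell from 2374 to 70 reads, 34.7-fold lower (27.4 to 44.7). Genes with roles in meiosis were thus found among both the higher and the lower calls.

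Further germline genes, partners of SYCP1 in the meiotic chromosome axis among them, were named after their values were seen. REC8, the meiotic cohesin kleisin, rose from 88 to 371 reads, 4.12-fold higher (95% interval 3.26 to 5.26). SYCP2, an axial element protein, had 563 and 1167 reads, 2.02-fold higher (1.83 to 2.24) and not called, whereas SYCP3, its partner, had 8 and 9 reads. MAJIN, which anchors meiotic telomeres at the nuclear envelope, rose from 5 to 62 reads, 12.1-fold higher (4.92 to 38.6). SYCE1, a central element protein that works with SYCP1, had 0 reads in both libraries, as had SPO11, the enzyme that starts meiotic recombination. CT83, an X-linked cancer-testis gene, fell from 132 reads to 0, at least 45.0-fold lower.

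**Figure D5:**
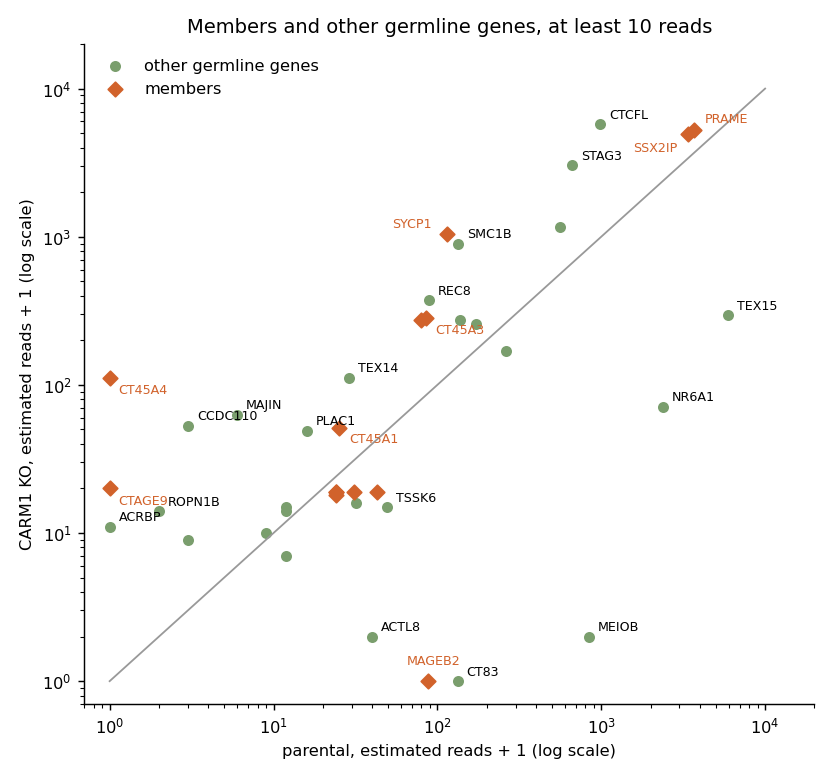
Estimated reads plus 1 in CARM1 KO (y axis) against parental cells (x axis), both on log scales, for members (orange diamonds) and other germline genes (green circles) with at least 10 reads; the line marks equal counts. SYCP1, SMC1B and REC8 lie above the line, and MEIOB, CT83 and MAGEB2 lie at the bottom.

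The somatic MAGE genes, which share the MAGE homology domain but are not restricted to the germline, were compared with the MAGEB and MAGEA members. Of 10 tested, 1 was called higher and 1 lower, near the 12.4% and 11.2% over all genes tested, with a median log2 ratio of -0.70. TRO, the trophinin gene, rose from 66 to 490 reads, 7.25-fold higher, and MAGED1 fell from 2242 to 753 reads, 3.05-fold lower. MAGEF1 was 2.55-fold lower with 2792 and 1119 reads, and MAGED2 was 1.85-fold lower with 2369 and 1312 reads, neither of them called. Unlike the germline MAGE families, 10 of 12 somatic MAGE genes in the counts had at least 10 reads.

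Partners through which MAGE and PRAME proteins act on ubiquitin ligases did not pass the threshold, with 0 of 13 tested called in either direction, beside 12.4% higher and 11.2% lower over all genes tested, and a median log2 ratio of -0.02. DDB1 was 1.10-fold higher, CUL4A was 1.04-fold higher and PRKAA1, a MAGEA3 and MAGEA6 target through TRIM28, was 1.30-fold lower.

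Regulators known to silence or activate cancer-testis genes, 38 tested, held 2 called higher (5.26%) and 4 lower (10.5%), which was not above the 12.4% and 11.2% over all genes tested, with a median log2 ratio of -0.24. DNMT1, the maintenance DNA methyltransferase, was 1.31-fold higher with 9373 and 12588 reads, TASOR of the HUSH silencing complex was 1.47-fold higher, and the histone demethylase KDM1A was 1.23-fold lower, none of them called. TET1 fell from 1754 to 347 reads, 5.18-fold lower, and TET2 fell from 3656 to 963 reads, 3.89-fold lower. Both are enzymes that oxidize methylated cytosine. MPHOSPH8, also of the HUSH complex, fell from 3502 to 648 reads, 5.53-fold lower, and the histone demethylase KDM5B fell from 6184 to 1638, 3.87-fold lower. ETS1, a transcription factor, rose from 1796 to 6333 reads, 3.44-fold higher. CTCFL, given above, was the other gene called higher.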

How the data were processed

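RNA-Seq (ScriptSeq libraries, 75-base paired-end reads) was made from 2 A1847 libraries. The authors aligned reads to hg19 with bowtie2 and deposited expected counts per Ensembl gene, estimated with RSEM (version 1.2.3 in the submitters' processing notes) and given as whole numbers without normalization; strand use and annotation release are not given in the sources used here. The authors called genes with edgeR at a false discovery rate (FDR) below 0.05 and a fold above 3. The calls above used no FDR. Symbols came from GENCODE release 44 lifted to GRCh37, which named 55501 identifiers. Counts were scaled by TMM in edgeR 4.0.16 (R 4.3.3), intervals used scipy 1.17.1, and log2 ratios added 2 reads. RPKM used merged exon length, and 75-base stretches of GRCh37 transcripts were matched exactly between genes. Calls were tested on simulated data with counting error only and large folds. That cannot check spread between libraries, folds near the threshold or the division of reads between copies. An exact test in edgeR and size factors of DESeq2 1.42.0 served as alternatives, with other minimums and folds.

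Named were all members with at least 10 reads, all family totals, CARM1, X-linked neighbours up to 3 on each side, and of each list the 3 genes with most reads and the called genes (of more than 6, the 6 with most reads). Members and lists were chosen with earlier results of these data known. Some neighbouring genes, list genes and sequences are not reported here.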

Additional observations from a re-analysis of the deposited data

How the results depend on the processing

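No paired analysis was possible because each group had 1 library, and for the same reason no library could be left out. The 5 members called higher became 3 when near-identical copies were summed, since the CT45A copies then counted once. They also became 3 (CT45A4, CTAGE9 and SYCP1) in edgeR's exact test with an assumed coefficient of variation of 0.4, which the exact test with 0.12 did not do. The 1 member called lower became 2 with a fold above 2, where XAGE1D was added. The other 17 alternative counts stayed within 1.5 times, and the 11 ratios of families and single genes kept their direction and size in all 33 values under other scalings. The scalings put the CARM1 KO library at 1 to 1.05 times the parental size, so no ratio could move far. The intervals of MAGEA, MAGEC, PAGE and SPANX included 1, so these had no firm direction to keep. GAGE, CT47A, BRDT and DDX53 had too few reads for a ratio, and CTAG and SSX without the genes of other families had 0 reads. Depth limits the silent members, each of which could hold up to 3 reads.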

Other observations

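The machinery that presents peptides of these antigens on HLA class I did not move in one direction. Of 13 genes tested, 4 were called higher and 1 lower, beside 12.4% and 11.2% over all genes tested, with a median log2 ratio of 0.61. HLA-B, a class I heavy chain gene, rose from 2203 to 10890 reads, 4.83-fold higher. The light chain gene B2M fell from 5515 to 841 reads, 6.71-fold lower. PSMB8, an immunoproteasome subunit, was 6.88-fold higher with 151 and 1063 reads, NLRC5, an activator of class I genes, 6.37-fold higher with 21 and 137, and the peptidase ERAP2 3.83-fold higher with 25 and 98. The chaperones CALR (1.55-fold lower) and PDIA3 (1.31-fold lower), which had the most reads of the list, were not called.

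Genes beside other members were compared as well. PCYT1B, a phosphatidylcholine synthesis gene and among the nearest genes with reads on one side of MAGEB2, fell from 278 to 2 reads, a ratio of 142-fold lower (95% interval 39.0 to 1181), but lies 5542886 bases away, and POLA1, 5218577 bases away, had 3777 and 3988 reads. On the other side NR0B1, 84117 bases away, rose from 6 to 34 reads, 5.53-fold higher (2.30 to 16.1), GK was 1.68-fold lower, TAB3 1.26-fold higher and, beyond PCYT1B, PDK3 1.39-fold lower. Beside the XAGE1 copies, MAGED1 and TSPYL2 (3.08-fold lower) were called lower and GPR173 was called higher, from 11 to 62 reads, while MAGED4B, MAGED4 and FAM156B were 1.43-fold, 1.44-fold and 1.47-fold lower. Next to PRAME, the zinc finger gene ZNF280A, named after its values were seen and 15510 bases away, fell from 64 to 5 reads, 13.1-fold lower (5.33 to 41.7). The 5 other genes beside PRAME were 1.00-fold to 2.06-fold lower and not called.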
